A study of Mus musculus with 18 samples.

Results

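The 7 genes Ighm, Igkc, Jchain, Mzb1, Cd79a, Cd79b and Ms4a1 mark B cells and the antibody-secreting plasma cells that B cells become. They were given by name and not by a measured value, and all 7 were found by exact symbol among the 46983 gene names of the count tables of both tissues. 6 of the 7 had counts in at least 1 library. Cd79a was listed at 0 in all 18 libraries. Which annotation was used for counting is not given in the sources used here, so this 0 may not mean a lack of expression.

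Adipose and bone marrow RNA of male mice was sequenced, all of the inbred strain C57BL/6J, in a series that asks about glutamine in obese mice. All 18 libraries carry HFD in their descriptions, so the arm given glutamine (HFD + Gln) and the arm without it (HFD) share that label. Each tissue had 5 HFD + Gln libraries and 4 HFD libraries, titled mAT-MSC VAT in adipose and mBMSC in bone marrow. These titles name stromal cells (MSC), so adipose and bone marrow stand here for those preparations. Their levels may not be those of the whole tissues. Age, glutamine dose and length of treatment are not stated. Each library has a pair of numbers in its title, such as 23_28, and is called by it. The labels do not say what the numbers stand for, nor whether each library is its own animal. Replicate spread may therefore be technical, and p-values cover no more than that spread. 1 bone marrow column of the glutamine arm matched no title and is called the unnumbered library.

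B cells carry a membrane antibody made of heavy and light chains, which signals through a pair of partner proteins. Plasma cells secrete the antibody, and IgM and IgA are joined into larger complexes by the J chain on the way out. In mice, visceral fat holds lymphoid clusters with innate-like B-1 cells that secrete IgM, while bone marrow is where B cells are formed and where long-lived plasma cells reside. Ighm encodes the constant region of the IgM heavy chain, Igkc that of the kappa light chain, and Jchain the J chain. Mzb1 is a chaperone of the endoplasmic reticulum that helps assemble IgM, Cd79a and Cd79b are the signalling partners of the membrane antibody, and Ms4a1 encodes CD20, a surface protein of B cells that plasma cells lose. Ighm lies on chromosome 12 and Igkc on chromosome 6 as constant region genes, Jchain on chromosome 5, Cd79a on chromosome 7, Cd79b on chromosome 11, Mzb1 on chromosome 18 and Ms4a1 on chromosome 19.

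Adipose libraries held 35871168 to 59529238 counts and 11361 to 14469 genes with at least 100 counts. Bone marrow libraries held 13970788 to 37984603 counts and only 1755 to 7323 genes at that level, with the highest number in HFD + Gln library 18_20. The summed level of 6 adipose progenitor genes was 4444 to 6288 CPM (counts scaled to the library total) in adipose HFD + Gln libraries and 4129 to 5391 CPM in adipose HFD libraries. The summed level of 8 neutrophil genes was 2699 to 25599 CPM in bone marrow HFD + Gln libraries and 4360 to 54234 CPM in bone marrow HFD libraries. A count of 3, the limit that a count of 0 allows, is worth 0.0504 to 0.0836 CPM in adipose and 0.079 to 0.215 CPM in bone marrow. Counts are reads and not molecules, so intervals and limits cover counting error only.

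In adipose, antibody transcripts were abundant. Ighm, Igkc and Jchain had lower mean levels in the glutamine arm, but no difference passed the test. Together the 7 genes took 0.194%, 0.311%, 0.14%, 0.0918% and 0.0446% of all counts in HFD + Gln libraries 4_6, 10_12, 13_15, 18_20 and 25_27. In HFD libraries 1_3, 5_11, 14_17 and 23_28 they took 0.325%, 0.127%, 0.18% and 0.573%. The lowest share was in HFD + Gln library 25_27 and the highest in HFD library 23_28, and the values of the other 7 libraries overlapped between the arms. None of the 6 members tested was called by edgeR's quasi-likelihood test at an adjusted p under 0.05, as was none of the 15114 genes tested (0%). Before adjustment, 624 genes had p under 0.05, 2 of them members (Ighm and Jchain), and DESeq2 called 0 members too.

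Ighm stood at 722, 1050, 398, 363 and 172 CPM in HFD + Gln libraries 4_6, 10_12, 13_15, 18_20 and 25_27. It stood at 1627, 469, 723 and 3270 CPM in HFD libraries 1_3, 5_11, 14_17 and 23_28. The 3 lowest values were in HFD + Gln libraries and the 2 highest in HFD libraries, and the arms overlapped between these. The fitted log2 fold change was -1.52 ± 0.541 (SE, edgeR adjusted p = 1). Without HFD library 23_28 it was -0.81, and without library 23_28 and HFD + Gln library 25_27 together it was -0.58.

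Jchain followed the same order of libraries closely. It stood at 158, 215, 93.2, 76.5 and 48.5 CPM in the HFD + Gln libraries and at 336, 112, 137 and 541 CPM in the HFD libraries, in the order given for Ighm. The fitted log2 fold change was -1.27 ± 0.478 (SE, edgeR adjusted p = 1). Without HFD library 23_28 it was -0.74, and without libraries 23_28 and 25_27 together it was -0.54.

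Igkc overlapped between the arms over most of its range. It stood at 1031, 1808, 899, 465 and 219 CPM in the HFD + Gln libraries and at 1258, 661, 923 and 1874 CPM in the HFD libraries. The fitted log2 fold change was -0.43 ± 0.463 (SE, edgeR adjusted p = 1), and without libraries 23_28 and 25_27 together it was 0.14.

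The 3 remaining detected members had lower levels. Mzb1 stood at 13.9, 14.5, 7.2, 4.43 and 2.01 CPM in the HFD + Gln libraries and at 9.35, 9.17, 8.17 and 30.8 CPM in the HFD libraries. Its HFD values were close together apart from library 23_28, and 2 HFD + Gln libraries lay above those 3. Reads of Mzb1 could be confused with those of Spata24, whose exons overlap it on the same strand in the annotation. Ms4a1 stood at 11.4, 15.1, 1.42, 4.08 and 3.3 CPM in the HFD + Gln libraries and at 8.5, 8.47, 6.8 and 14.6 CPM in the HFD libraries. Here 3 HFD + Gln libraries were below every HFD library, and the highest value of all was also in an HFD + Gln library. Cd79b stood at 0.0477, 7.58, 4.91, 5.99 and 1.42 CPM in the HFD + Gln libraries and at 8.07, 6.91, 2.96 and 0.925 CPM in the HFD libraries. It had only 2 counts in HFD + Gln library 4_6 and 42 counts in HFD library 23_28, the library in which Ighm, Igkc, Jchain and Mzb1 were highest. The fitted log2 fold changes were -0.79 ± 0.725 for Mzb1, -0.47 ± 0.807 for Ms4a1 and -0.28 ± 1.24 for Cd79b (SE, edgeR adjusted p = 1 for each).

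**Figure D1:**
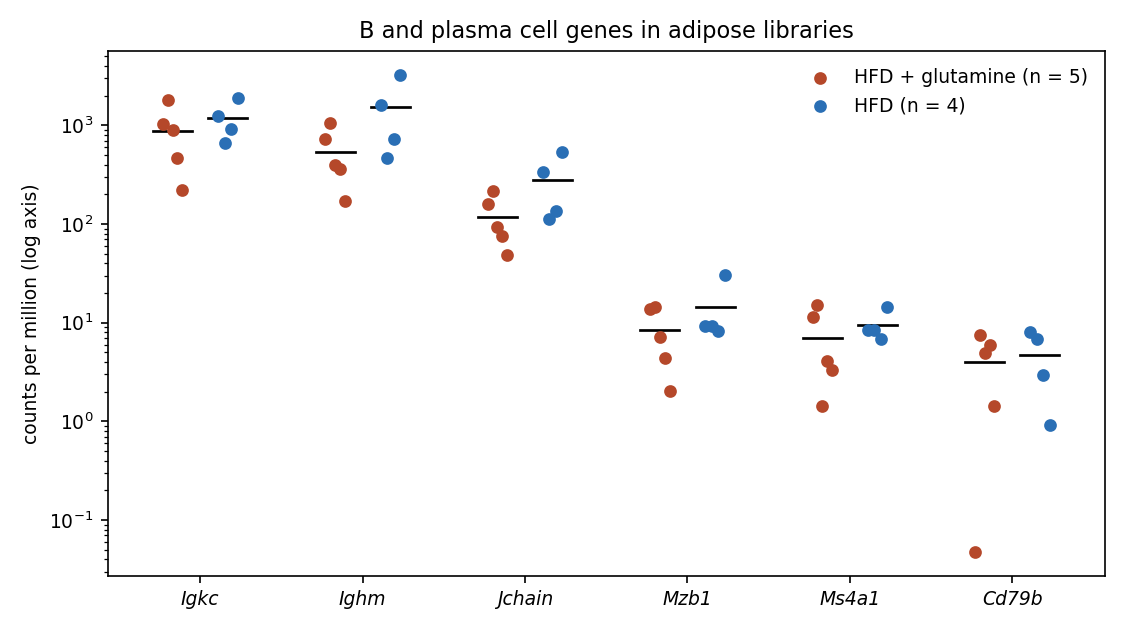
Level of the 6 detected genes in each adipose library, in CPM on a log axis, with HFD + glutamine libraries left of HFD libraries for each gene and a black line at the arithmetic mean of an arm. Points are libraries. The arms overlapped for all 6 genes, and 1 HFD + glutamine library had Cd79b at 0.0477 CPM.

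On average Ighm was at 541 ± 346 CPM in HFD + Gln libraries and 1522 ± 1267 CPM in HFD libraries (SD, n = 5 and n = 4). Igkc was at 884 ± 611 CPM in HFD + Gln libraries and 1179 ± 524 CPM in HFD libraries, and Jchain at 118 ± 67.4 CPM in HFD + Gln libraries and 281 ± 200 CPM in HFD libraries, over the same numbers of libraries. All 6 fitted log2 fold changes were negative, with a median of -0.63, against a median of -0.02 and a share of 51.4% negative over all genes tested. 0 of the 6 members had arms without overlap, against 0.635% of all genes in the lower direction and 1.04% in the higher direction. In bulk samples, fewer cells of a type and less RNA per cell cannot be told apart.

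Other leukocyte genes varied in these libraries too. Ptprc, which encodes the CD45 protein of leukocytes, stood at 70.9, 73.2, 79, 55 and 88.5 CPM in the HFD + Gln libraries and at 149, 86.9, 121 and 306 CPM in the HFD libraries (log2 fold change -1.20 ± 0.314, SE, edgeR adjusted p = 1). The 8 macrophage genes all had negative fold changes, with a median of -1.08 and a summed level of 255 to 696 CPM in HFD + Gln libraries and 518 to 1564 CPM in HFD libraries. The 11 T and NK cell genes summed to 52.5 to 149 CPM in HFD + Gln libraries and 72.5 to 263 CPM in HFD libraries, and HFD library 23_28 was highest in both lists. The 6 mesothelial genes summed to 2.77 CPM in HFD + Gln library 25_27, against 437 to 617 CPM in the other 4 HFD + Gln libraries and 233 to 511 CPM in the HFD libraries. The part of these differences in the B and plasma cell values was not tested, but levels relative to Ptprc were measured. Ighm had 7.62 ± 4.79 counts per Ptprc count in HFD + Gln libraries and 8.24 ± 2.96 in HFD libraries (SD, n = 5 and n = 4, two-sided exact permutation p = 0.825). Igkc had 12.3 ± 8.23 counts per Ptprc count in HFD + Gln libraries and 7.45 ± 0.958 in HFD libraries (SD, n = 5 and n = 4, exact permutation p = 0.294). Ms4a1 had 9.94 ± 8.11 counts per 100 Ptprc counts in HFD + Gln libraries and 6.46 ± 2.23 in HFD libraries (SD, n = 5 and n = 4, exact permutation p = 0.444). Per Ptprc count, the HFD libraries thus stood close together for Igkc, at 6.13 to 8.42, while the HFD + Gln libraries spread from 2.47 in library 25_27 to 24.7 in library 10_12. The other 4 HFD + Gln libraries, at 8.45 to 24.7, lay above every HFD library, but the nearest values were 8.45 and 8.42. Leaving out 1 library at a time moved the Igkc difference between 1.76 and 7.32 (exact permutation p = 0.0286 to 0.464, not adjusted), with 7.32 and 0.0286, the smallest p that 4 against 4 libraries can give, without library 25_27. The Ms4a1 difference per 100 Ptprc counts then ran from 0.816 to 5.51 (exact permutation p = 0.286 to 0.857) and the Ighm difference per Ptprc count from -2.3 to 0.801 (exact permutation p = 0.343 to 0.971).

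Ighm, Igkc, Jchain and Mzb1 varied together across the 9 adipose libraries. Ighm and Jchain had a Pearson correlation of 0.995 on log2 CPM (exact permutation p = 5.51e-06, adjusted p = 8.27e-05 over 15 pairs) and a Spearman correlation of 0.983 (exact permutation p = 4.96e-05, adjusted p = 0.000744). Without the 2 libraries farthest from the median of Ighm the Pearson value was 0.991, and with the mean of each arm removed it was 0.993. Jchain ran at 23 ± 3.08 counts per 100 Ighm counts in HFD + Gln libraries and 20 ± 3.06 in HFD libraries (SD, n = 5 and n = 4, exact permutation p = 0.198). Igkc and Mzb1 had a Pearson correlation of 0.93 (exact permutation p = 0.000397, adjusted p = 0.00298), with a Spearman value of 0.933 (exact permutation p = 0.00075, adjusted p = 0.00187). Without the 2 farthest libraries it was 0.819. Ighm and Mzb1 stood at 0.894 over the 9 libraries and at 0.62 without the 2 farthest, so that relation rested in part on those libraries. For Ms4a1 the answer depended on the measure. Its Pearson correlations with Ighm, Igkc, Jchain and Mzb1 were 0.605 to 0.714 (adjusted p = 0.0614 to 0.126, exact permutation) and did not pass. Its Spearman correlations with them were 0.8 to 0.933 (adjusted p = 0.00187 to 0.0207, exact permutation) and all 4 passed. Cd79b had Pearson values of -0.25 to -0.0237 and Spearman values of -0.0167 to 0.133 with the other 5 members, none of which passed.

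**Figure D2:**
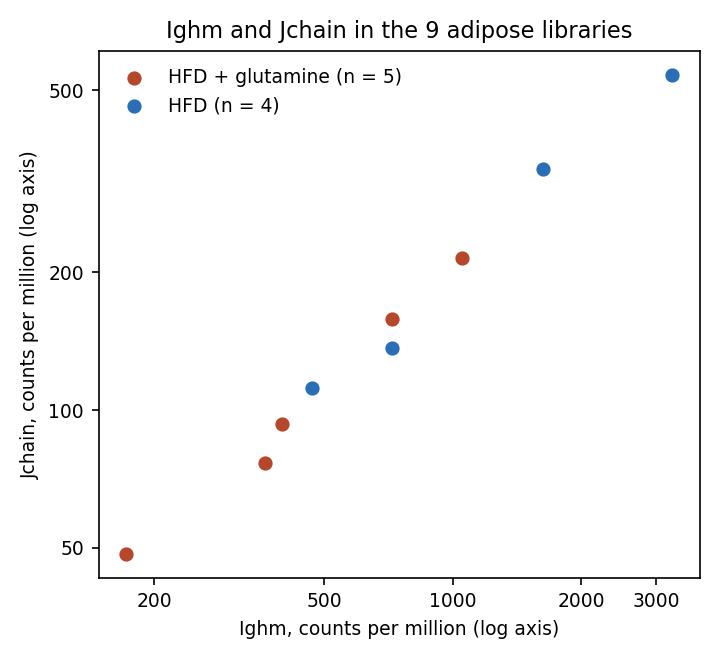
Jchain level against Ighm level in the 9 adipose libraries, both in CPM on log axes, with 5 HFD + glutamine and 4 HFD libraries in different colours. The points lie near 1 line from HFD + glutamine library 25_27, at 172 and 48.5 CPM, to HFD library 23_28, at 3270 and 541 CPM.

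By a rule of likeness, the 8 genes whose level most resembled the mean of the 6 members over the 9 adipose libraries included Sorl1, Cish, Fem1b, Tle1, Homer1, Psmb5 and Fermt3. They were taken from 10850 genes, with members, immunoglobulin genes and unnamed models left out. Their Pearson correlations with the members' mean z-score ran from 0.942 for Fermt3 to 0.987 for Sorl1. Without the 2 farthest libraries they ran from 0.816 for Fermt3 to 0.974 for Sorl1. The 8 genes were picked for this correlation out of many, over only 9 libraries. High values therefore follow in part from the choice, also without the 2 farthest libraries. Whether the 8 genes are tied to B cells was not tested. Sorl1, a sorting receptor, averaged 16.9 CPM in HFD + Gln libraries and 37.9 CPM in HFD libraries, and Cish, an inhibitor of cytokine signalling, 54.7 CPM in HFD + Gln libraries and 94.4 CPM in HFD libraries. The 9 points are the same libraries for every gene, so they share each library's depth and leukocyte level, and none of the 8 genes was called.

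The make-up of the antibody transcripts was read as shares, which do not depend on their amount. On average, IgM and lambda chains took smaller shares and IgG and kappa chains larger ones in the glutamine arm, but no share passed the test after adjustment. Of the counts on heavy chain constant regions, Ighm took 88.8%, 80.7%, 74.1%, 86.6% and 84.7% in HFD + Gln libraries 4_6, 10_12, 13_15, 18_20 and 25_27, and 87.3%, 93.6%, 90.3% and 95% in HFD libraries 1_3, 5_11, 14_17 and 23_28. 4 of the 5 HFD + Gln libraries lay below every HFD library. The mean was 83 ± 5.78% in HFD + Gln libraries and 91.6 ± 3.43% in HFD libraries, a difference of -8.59 percentage points (SD, n = 5 and n = 4, two-sided exact permutation p = 0.0317, adjusted p = 0.127 over 8 measures). The smallest p that the splits of 9 libraries into 5 and 4 can give is 0.00794. Leaving out 1 library at a time, the difference stayed between -10 and -6.37 percentage points and its p between 0.0286 and 0.0893. Without libraries 23_28 and 25_27 together it was -7.86 percentage points (exact permutation p = 0.143).

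The IgG genes, made by B cells that have switched class, took 6.02%, 15.1%, 11.4%, 5.62% and 10.4% of heavy chain counts in the HFD + Gln libraries and 8.77%, 0.15%, 4.49% and 1.28% in the HFD libraries. Their mean was 9.7 ± 3.95% in HFD + Gln libraries and 3.67 ± 3.86% in HFD libraries (SD, n = 5 and n = 4, exact permutation p = 0.0556, adjusted p = 0.148). Igha, the heavy chain of IgA, took 6.92 ± 4.35% in HFD + Gln libraries and 4.53 ± 0.959% in HFD libraries (SD, n = 5 and n = 4, exact permutation p = 0.389). Of the light chain constant region counts, Igkc took 90.1%, 94.8%, 96%, 88.7% and 97% in the HFD + Gln libraries and 85.3%, 90%, 86.4% and 79.5% in the HFD libraries, the rest being the lambda genes Iglc1, Iglc2 and Iglc3. The mean was 93.3 ± 3.68% in HFD + Gln libraries and 85.3 ± 4.37% in HFD libraries, a difference of 7.98 percentage points (SD, n = 5 and n = 4, exact permutation p = 0.0317, adjusted p = 0.127). Constant region genes of one class are close copies of each other, so counts of a single IgG or lambda gene are less certain than the sums used here. Without libraries 23_28 and 25_27 together the Igkc difference was 5.12 percentage points (exact permutation p = 0.143). None of the 8 measures passed the adjustment.

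**Figure D3:**
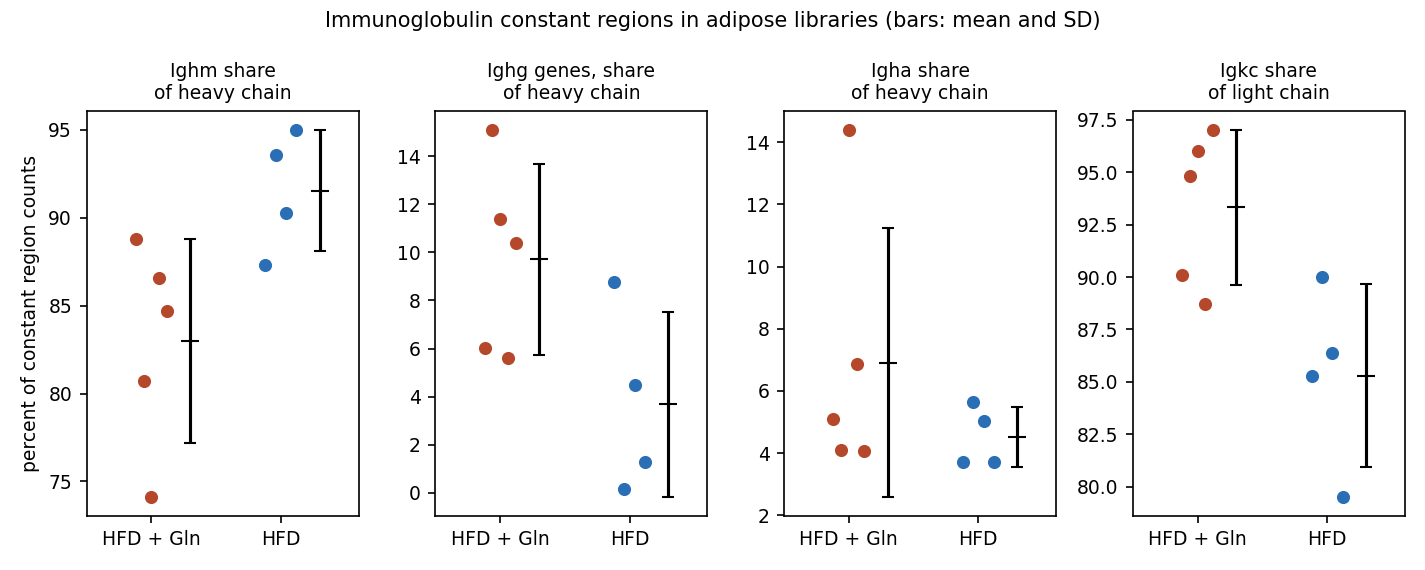
Share of heavy chain or light chain constant region counts, in percent, taken by Ighm, the IgG genes, Igha and Igkc in each adipose library, with HFD + glutamine (n = 5) left of HFD (n = 4). Points are libraries and black bars give the mean and SD. Ighm shares were 74.1% to 88.8% in HFD + glutamine libraries and 87.3% to 95% in HFD libraries.

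Reads on variable region segments were few and give only a partial view of which antibody genes were in use. The 3′ kit collects reads near the end of a transcript, away from these segments, so their counts are no even sample of the segments expressed. The tables list 384 V, D and J segments, of which 364 were at 0 in all adipose libraries and 12 reached 100 counts in at least 1 of them. 9 of those 12 did so in a single library, and 3 in more than 1. Segment counts came to 142 to 984 in HFD + Gln libraries and 276 to 3104 in HFD libraries, which is 3.25 to 17.3 counts per 1000 counts of Ighm and Igkc together, so most antibody reads fell on constant regions. Ighv11-2 led by count summed over the adipose libraries. It is a heavy chain segment that mouse B-1a cells binding phosphatidylcholine are known to use, and it lies at chr12:114048241-114048812 on the minus strand of GRCm38. It had 431, 443, 20, 141 and 1 counts in the HFD + Gln libraries and 925, 0, 196 and 91 counts in the HFD libraries, 2248 of 8041 segment counts (28%), of which HFD library 23_28 alone held 3104. It led in 5 of the 9 libraries, with 53.2%, 45% and 99.3% of 810, 984 and 142 segment counts in HFD + Gln libraries 4_6, 10_12 and 18_20 and 61% and 71% of 1516 and 276 in HFD libraries 1_3 and 14_17. In the other 4, Igkv4-73 led in HFD + Gln library 13_15, Igkv4-86 in HFD + Gln library 25_27, Igkv14-126 in HFD library 5_11 and Igkv8-30 in HFD library 23_28, with 31.2% to 78.9%. Both arms held libraries with at least 196 counts and a library with at most 1. Igkv14-126, a kappa segment known to pair with it, was looked up after its values were seen and had 74 counts in HFD + Gln library 13_15, 491 in HFD library 5_11 and at most 1 in the other 7. Of the other leading segments, Igkv5-39 had 306 counts in HFD + Gln library 10_12, 317 in HFD library 1_3 and 744 in HFD library 23_28, and Iglv1 had 857 in HFD library 23_28 and 210 in HFD library 5_11.

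Ighv11-2 has a near copy, Ighv11-1, which had 1 count in all adipose libraries together. The 300 bases at the 3′ end of the second coding exon of each are shown because only these letters separate the 2 segments there. They were read from the GENCODE transcripts on GRCm38, at chr12:114048241-114048540 for Ighv11-2 and chr12:113981879-113982178 for Ighv11-1, both on the minus strand, and capitals mark the bases that differ.
Ighv11-2: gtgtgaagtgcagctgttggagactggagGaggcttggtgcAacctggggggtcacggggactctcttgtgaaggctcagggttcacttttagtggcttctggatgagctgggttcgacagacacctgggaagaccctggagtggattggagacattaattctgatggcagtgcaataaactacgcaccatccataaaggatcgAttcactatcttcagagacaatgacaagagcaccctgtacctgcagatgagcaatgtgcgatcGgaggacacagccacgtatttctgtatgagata
Ighv11-1: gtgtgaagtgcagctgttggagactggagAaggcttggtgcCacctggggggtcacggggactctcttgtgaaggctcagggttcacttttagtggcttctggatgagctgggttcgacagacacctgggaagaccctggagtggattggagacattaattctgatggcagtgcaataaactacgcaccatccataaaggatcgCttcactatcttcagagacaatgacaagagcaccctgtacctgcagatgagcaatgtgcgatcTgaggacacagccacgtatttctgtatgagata

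The segments differ at 4 of their 353 coding bases, an identity of 98.9%, and share a run of 162 bases. A read inside such a run matches both, and how the counting treated such reads is not stated, so the counts of Ighv11-2 may leave some out.

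Genes that accompany the members in B cells were low and uneven in adipose. Of 20 B cell identity genes, 18 reached 100 counts in at least 1 HFD + Gln library and 17 in at least 1 HFD library, but only 4 did so in all HFD + Gln libraries and 5 in all HFD libraries. Their summed level was 51.6 to 112 CPM in HFD + Gln libraries and 84.4 to 252 CPM in HFD libraries. 13 of the 18 tested had a negative fold change, with a median of -0.62, and none was called. Blnk, an adaptor of antigen receptor signalling, had a log2 fold change of -1.34 ± 0.569, and Cd37, a surface tetraspanin, of -2.12 ± 0.685 (SE, edgeR adjusted p = 1 for both). Ly6d, a marker of lymphoid commitment, stood at -0.75 ± 0.744 and Pou2af1, a coactivator of immunoglobulin transcription, at -0.36 ± 1.07.

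The 10 plasma cell genes summed to 153 to 386 CPM in HFD + Gln libraries and 255 to 559 CPM in HFD libraries, with 7 of 10 fold changes negative, a median of -0.62 and none called. Irf4 and Prdm1, regulators that drive plasma cell formation, stood at log2 fold changes of -1.02 ± 0.767 and -1.28 ± 0.669, and Xbp1, which expands the secretory apparatus, at -0.61 ± 0.472. Txndc5, a disulfide isomerase, stood at -0.63 ± 0.36 and Tent5c, a poly(A) polymerase active in plasma cells, at -0.28 ± 0.453. The 3 positive values of the list were 2.01 ± 1.46 for Derl3, 0.20 ± 1.95 for Tnfrsf17 and 0.13 ± 0.87 for Fkbp11. Several of these genes are also expressed in other cells of fat.

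The other antibody constant regions had fold changes in both directions. The 3 lambda genes had log2 fold changes of -1.71 ± 0.665 for Iglc1, -2.48 ± 0.979 for Iglc2 and -1.72 ± 0.561 for Iglc3, and Igha of -0.68 ± 0.54. Of the IgG genes, Ighg2b stood at 0.94 ± 1.31, Ighg3 at 2.98 ± 1.31 and Ighg2c at -0.73 ± 1.06. Ighd, the heavy chain of IgD on naive B cells, stood at -0.28 ± 1.44 (SE, edgeR adjusted p = 1 for each). 6 of the 8 tested were negative, with a median of -0.71, and none was called. Precursor genes were sparse. Of 8, Vpreb2, Rag2 and Dntt were at 0 in every adipose library, and only Ebf1 and Il7r, which other cells also express, were tested. At least 100 counts were reached by 4 of the 8 in 1 or more HFD + Gln libraries and by 3 in 1 or more HFD libraries. Only 2 reached them in all libraries of an arm.

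Among 10 factors that attract or sustain B cells, 7 were tested, 4 were negative and the median was -0.03. Cxcl12, a chemokine that holds B cell precursors and plasma cells, stood at -0.03 ± 0.343, Kitl, the ligand of the Kit receptor, at -0.05 ± 0.253, Il6, a plasma cell survival factor, at -0.34 ± 0.266 and Flt3l, a lymphoid growth factor, at 0.03 ± 0.434 (log2 fold change ± SE, none called). Cxcl13, the chemokine that draws B-1 cells into fat clusters, stood at 1.56 ± 1.46 (log2 fold change ± SE, not called). It had 73.6 CPM in HFD + Gln library 25_27, the library with the lowest Ighm and with mesothelial genes at 2.77 CPM. In HFD library 23_28, the library with the highest Ighm, it had 0.0661 CPM. In the other 7 adipose libraries Cxcl13 was at 0.499 to 12.8 CPM. The relation of Cxcl13 to Ighm over all adipose libraries was not tested.

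**Figure D4:**
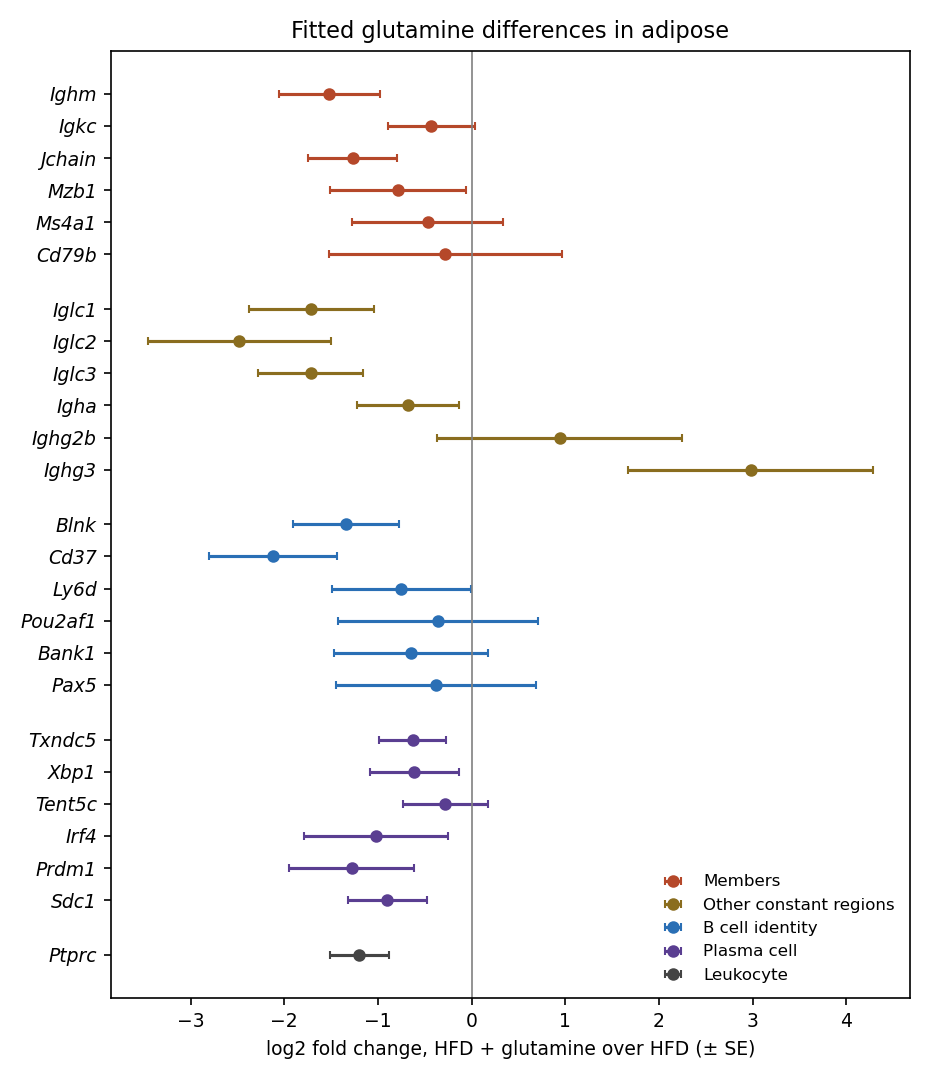
Fitted log2 fold change of HFD + glutamine over HFD in adipose, with its standard error as a bar, for the members and for named genes of the related groups. Most lie left of 0, Ighg2b and Ighg3 lie right of it at 0.94 and 2.98, and no gene shown passed the test. Not drawn are the 5 B cell identity genes and 3 plasma cell genes with positive values, which reached 2.91 and 2.01, so the share left of 0 depends on the genes drawn.

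Adipose libraries held more of all 6 detected members than bone marrow libraries in the fit of all 18 libraries, a direction that Mzb1, Cd79b, Ms4a1 and Jchain kept under every scaling tried and that Ighm and Igkc lost under 3 of them. Mzb1 was at 2.01 to 30.8 CPM in adipose and at 0 to 0.0716 CPM in bone marrow. Cd79b was at 0.0477 to 8.07 CPM in adipose and 0 to 0.118 CPM in bone marrow, and Ms4a1 at 1.42 to 15.1 CPM in adipose and 0 to 0.0993 CPM in bone marrow. No bone marrow library had more than 3 counts of any of these 3 genes, and the ranges of the tissues did not overlap for Mzb1 and Ms4a1. Jchain was at 48.5 to 541 CPM in adipose and 0.429 to 1 CPM in 8 of the 9 bone marrow libraries. Ighm was at 172 to 3270 CPM in adipose and 3.02 to 179 CPM in bone marrow, and Igkc at 219 to 1874 CPM in adipose and 3.62 to 251 CPM in bone marrow. Only the highest bone marrow library reached the lowest adipose library for Jchain, Ighm and Igkc.

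Of the 6 members, 6 were called higher in adipose. Of the 15203 genes tested, 51.7% were called, 40.5% higher and 11.2% lower (edgeR, adjusted p under 0.05). The log2 fold changes were 7.59 ± 0.988 for Mzb1 (adjusted p = 4.12e-06), 6.15 ± 1.22 for Cd79b (adjusted p = 0.000313), 5.99 ± 1.02 for Ms4a1 (adjusted p = 6e-05) and 3.79 ± 1.11 for Jchain (adjusted p = 0.00797). They were 2.57 ± 0.949 for Ighm (adjusted p = 0.0288) and 2.07 ± 0.784 for Igkc (adjusted p = 0.0325). The median over all genes was 1.43, and relative to it the values were 6.16 for Mzb1, 4.72 for Cd79b, 4.56 for Ms4a1, 2.36 for Jchain, 1.14 for Ighm and 0.64 for Igkc. With relative log expression factors, upper-quartile factors and DESeq2 the median over all genes shifted to -1.94, -0.89 and -1.98, Ighm and Igkc turned negative, and 2, 3 and 3 members were called. For genes with almost no bone marrow counts the fitted value depends on the prior count added by the fit.

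Markers of other cell types moved with this difference. Of the T and NK cell genes 9 of 10 tested were called higher in adipose (median log2 fold change 6.12), of the dendritic cell genes 6 of 6 (6.23), of the mesothelial genes 6 of 6 (6.02) and of the endothelial genes 5 of 5 (6.00), against a median of 4.89 for the members. The T and NK cell genes summed to 52.5 to 263 CPM in adipose and 0.192 to 80.6 CPM in bone marrow, and the endothelial genes to 496 to 1556 CPM in adipose and 2.39 to 256 CPM in bone marrow. All 8 neutrophil genes were called lower, with a median of -10.30, and Ptprc stood at -0.92 ± 1.12 (adjusted p = 0.498). The part of these differences in the member values was not tested.

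In the related lists both directions occurred. 14 of 18 B cell identity genes tested were called higher in adipose and none lower, among them Blnk at 6.23 ± 0.858 and Pax5, which fixes B cell identity, at 5.90 ± 1.08. Of 10 plasma cell genes, 6 were called higher, including Irf4 at 6.54 ± 0.973, and 1, Tent5c, lower at -3.55 ± 1.38. Of 9 other constant region genes, 6 were called higher, including Iglc1 at 5.90 ± 0.936 and Iglc3 at 6.16 ± 0.866. Of 7 support factors tested, 4 were called higher and 2 lower. Cxcl12 was called lower in adipose at -5.70 ± 0.405 and Kitl at -2.98 ± 0.892, while Cxcl13 was called higher at 6.22 ± 1.3 and Il6 at 4.01 ± 1.02. The median log2 fold changes of these lists were 5.97, 2.72, 3.92 and 2.86, against 1.43 over all genes. The calls for all gene lists come from the main fit and were not repeated under the other scalings. B cell identity genes summed to 51.6 to 252 CPM in adipose. In bone marrow they reached 983 CPM in the unnumbered library and 317 CPM in HFD + Gln library 10_12, and at most 49.6 CPM elsewhere. Plasma cell genes summed to 153 to 559 CPM in adipose and 1.54 to 670 CPM in bone marrow.

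**Figure D5:**
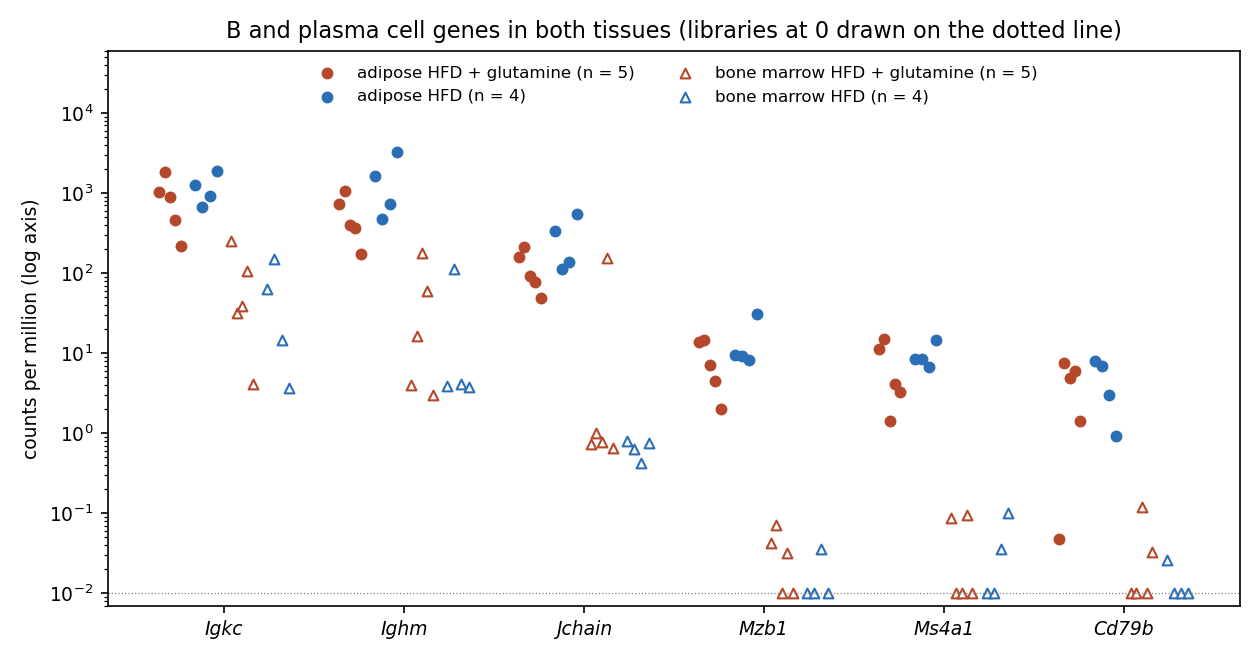
Level of the 6 detected genes in all 18 libraries, in CPM on a log axis, ordered for each gene as adipose HFD + glutamine, adipose HFD, bone marrow HFD + glutamine and bone marrow HFD. Points are libraries, and those at 0 are drawn on the dotted line. Mzb1, Ms4a1 and Cd79b were at most 0.118 CPM in bone marrow, where single libraries of Ighm, Igkc and Jchain reached 179, 251 and 154 CPM.

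In bone marrow Ighm was high in 3 of the 9 libraries, over both arms, Jchain in 1 library, and Igkc varied gradually between 3.62 and 251 CPM, while Mzb1, Cd79b and Ms4a1 had 0 to 3 counts in every library. Ighm had 93, 229, 3017, 1840 and 93 counts in HFD + Gln libraries 4_6, 10_12, unnumbered, 18_20 and 25_27 and 148, 3873, 116 and 77 counts in HFD libraries 1_3, 5_11, 14_17 and 23_28. Igkc had 5829, 441, 662, 3301 and 127 counts in the HFD + Gln libraries and 2403, 5260, 408 and 73 counts in the HFD libraries. HFD + Gln library 4_6 had the most Igkc with nearly the least Ighm, and the unnumbered library had 3017 Ighm counts with 662 of Igkc. Jchain had 4813 counts in HFD + Gln library 18_20, against 13 to 20 counts in the other 4 HFD + Gln libraries and 12 to 30 counts in the HFD libraries.

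3 members passed the count filter in bone marrow, and none was called, where 0.132% of the 6041 genes tested were called, all of them lower. The log2 fold changes were 1.21 ± 2.43 for Ighm (SE, edgeR adjusted p = 0.897), 0.33 ± 2.36 for Igkc (adjusted p = 0.97) and 4.33 ± 2.3 for Jchain (adjusted p = 0.298). Before adjustment, 1127 genes had p under 0.05, none of them a member, and DESeq2 called 0 members. 0 of the 3 had arms without overlap, against 0.513% of all genes in the lower direction and 1.99% in the higher direction. Without library 18_20 Jchain stood at -0.15, and without the unnumbered library Ighm stood at -1.18.

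Some other antibody and B cell genes were also high in 1 or 2 bone marrow libraries, and are given as values chosen after they were seen. Igha had 5722 counts in HFD + Gln library 10_12 and 6481 in HFD + Gln library 18_20, and 7 to 20 counts in the other 7 libraries. Tnfrsf13c, the BAFF receptor, was at 600 CPM in the unnumbered library and at most 0.358 CPM in the other 8. Bank1, a B cell scaffold protein, was at 230 CPM in HFD + Gln library 10_12 and 33.6 CPM in library 18_20, and at most 0.178 CPM elsewhere. Heavy chain reads were thus 98.9% Ighm in the unnumbered library, 96% Igha in library 10_12 and 99.1% IgG in HFD library 1_3. Ptprc was at 262 CPM in HFD + Gln library 25_27 and 267 CPM in HFD library 1_3, and at 0.652 to 24.3 CPM in the other 7, so the libraries with the most Ptprc were not those with the most Ighm. No V, D or J segment had more than 3 counts in any bone marrow library.

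The difference between the 2 tissues' glutamine differences was tested in the fit of all 18 libraries, in which 11.9% of 15203 genes were called, 4.05% higher and 7.87% lower. 0 of the 6 members were called, 1 had an unadjusted p under 0.05, and DESeq2 called 0. Jchain came nearest, at -6.01 ± 2.14 on the log2 scale (SE, edgeR adjusted p = 0.0624), with 31.5 ± 68.6 CPM in bone marrow HFD + Gln libraries and 0.649 ± 0.161 CPM in bone marrow HFD libraries (SD, n = 5 and n = 4) behind the bone marrow side. Without bone marrow libraries 18_20 and unnumbered it was 0.66. The other 5 members had adjusted p-values of at least 0.457. Among related genes, Bank1 at -9.68 ± 2.63 (adjusted p = 0.0432), Tnfrsf13c at -13.55 ± 3.61 (adjusted p = 0.0432), Fkbp11, a folding enzyme of secretory cells, at -8.06 ± 2.54 (adjusted p = 0.0458) and Igha at -8.21 ± 2.42 (adjusted p = 0.0434) were called lower. In bone marrow each of these 4 was high in 1 or 2 libraries of the glutamine arm and near 0 in the rest.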

How the data were processed

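Per the labels' protocols, a QuantSeq 3′ kit was used on 30 ng of RNA per library, so a count stands for reads near the end of a transcript and needs no length correction. The deposited values are whole-number read counts per gene, with no normalization visible in the values. Per the submitters' processing notes, the tools included STAR 2.7.10b, HTSeq 0.11.3 and FastQC 0.12.1, and the build was GRCm38. Which annotation and strand setting were used, and what was done with duplicate or multiply matching reads, is not given in the sources used here.

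Gene positions, 1-based, came from GENCODE M21 on GRCm38. Glutamine was tested within a tissue on its 9 libraries in R 4.3.3 with edgeR 4.0.16 (filterByExpr, TMM factors, quasi-likelihood F test, two-sided, Benjamini-Hochberg adjustment over all genes tested). The tissue comparison and the difference of differences used 1 fit of all 18 libraries. Printed CPM are per library total. Shares and ratios were tested by exact permutation of the libraries with scipy 1.17.1, adjusted over 8 measures. Segments were matched by symbol pattern. Fits were tested on simulated counts that varied less between libraries than these data. The median dispersion, the spread beyond counting error, was 0.378 in adipose, 3.32 in bone marrow and 2 in the fit of all 18 libraries. That test therefore does not show how the fits perform at the spread seen here.

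The members and gene lists were chosen with earlier results of these data known. Named were all members, the 4 most abundant adipose genes of each related list and those called in a comparison, the 3 leading segments, and the 8 genes with the highest correlation to the members. Values of some genes that this rule names are not reported here. The alternatives tried were upper-quartile and relative log expression factors, other count filters, DESeq2 1.42.0, limma-voom 3.58.1 with quality weights, a joint fit, a replicate block and leaving out each library. Leaving out 2 pairs of libraries was chosen after seeing the data.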

Additional observations from a re-analysis of the deposited data

Results flagged for a closer look

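Within groups of 4 or 5 libraries, 34 sets of values were screened for 1 library set far apart from the others. Of these sets, 4 were flagged. For normally spread and independent sets, chance flags about 1 in 20. CPM levels here were often skewed and several genes varied together, so the 4 cannot be read against that rate. In bone marrow HFD libraries, Ighm stood at 111 CPM in library 5_11, and the next library was at 4.14 CPM. In bone marrow HFD + Gln libraries, Jchain stood at 154 CPM in library 18_20, and the next was at 1 CPM. In adipose HFD libraries, Mzb1 stood at 30.8 CPM in library 23_28, and the next was at 9.35 CPM. In adipose HFD + Gln libraries, Igha took 14.4% of heavy chain constant region counts in library 13_15 (95% Wilson interval 14% to 14.9%), and the next was at 6.87%.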

How the results depend on the processing

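The count of members called was 0 for glutamine in adipose, 0 for glutamine in bone marrow and 0 for the difference between them under every alternative. In adipose, 98 of 102 single-gene values under the alternatives kept their direction. Igkc was at 0.14 and Mzb1 at 0.16 without libraries 23_28 and 25_27 together, and Cd79b ran from -0.64 to 0.11 when 1 library was left out. For adipose against bone marrow, 6 members were called in the main fit, 2 with relative log expression factors, 3 with upper-quartile factors, 3 with DESeq2 and 4 to 6 when 1 library was left out. Ighm was then at -1.11, -0.13 and -1.11 and Igkc at -1.60, -0.30 and -1.60 under those 3 scalings. In bone marrow, 7 of 50 values turned. Igkc was at -0.20 with limma-voom and -0.21 to 1.3 with 1 library left out, Ighm at -1.18 to 3.46 and Jchain at -0.15 to 4.79. Without libraries 18_20 and unnumbered together Ighm was at -2.22 and Jchain at -0.50. For the difference between tissues, 16 of 162 values turned. Ms4a1 was at 1.06, 2.05, 0.14 and 0.96 with relative log expression factors, upper-quartile factors, no count filter and DESeq2, and at -1.59 to 0.74 with 1 library left out. Without adipose libraries 23_28 and 25_27 together it was at 0.30. Without bone marrow libraries 18_20 and unnumbered together Ms4a1 was at 2.85, Ighm at 0.08 and Jchain at 0.66. Igkc ran from -1.93 to 0.19 with 1 library left out. Ighm counts per Ptprc count differed by -2.3 to 0.801 with 1 library left out, and by 1.62 without libraries 23_28 and 25_27 together. The cause of these changes was not tested. With a replicate block on the number pairs of 16 libraries, 6 members were called between tissues and 0 for the difference. Deviations of same-numbered libraries correlated at -0.00906 to 0.0302 over 8 pairs, and 2 of 8 matched best with their own number. Bone marrow libraries varied so widely that this check could miss a shared source, so it cannot decide whether the numbers are a pairing. The main fits did not use them as one. In bone marrow Mzb1, Cd79b and Ms4a1 had 0 to 3 counts per library, too few to compare the arms.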
